A study of Rattus norvegicus with 9 samples.

Results

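Heterotrimeric G proteins, the RGS proteins that switch them off, and the enzymes that make and break down cyclic nucleotides were compared across 3 dietary proteins in the rat proximal colon. The genes were taken by symbol, namely the alpha (Gna), beta (Gnb) and gamma (Gng) subunits, the regulators of G protein signalling (Rgs), the adenylyl cyclases (Adcy) and the phosphodiesterases (Pde). By this rule, 71 of the 8799 probe sets on the array were members, and they stood for 47 of 4736 genes that the platform annotation gave as the single symbol of a probe set. There were 17 probe sets of 9 Gna genes, 8 of 5 Gnb genes, 8 of 5 Gng genes, 10 of 9 Rgs genes, 9 of 7 Adcy genes and 19 of 12 Pde genes. A further 2 probe sets that carried a member symbol together with another symbol were left out.

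Male Sprague Dawley rats were raised, from before birth through their dams, on 1 of 3 purified diets that differed in their protein, which was soy protein isolate (SPI), whey protein hydrolysate (WPH) or casein (CAS, the control). All of them, controls included, had been injected 2 times, from 90 days of age, with 15 mg/kg of the carcinogen azoxymethane (AOM), and colons were taken 40 weeks later. RNA from tissue without tumor was pooled from 7 rats of each diet, and 3 targets were labelled from each pool and hybridized to 3 Affymetrix rat expression arrays per diet, 9 in all. Arrays of 1 diet thus differ by technical spread alone. Each test sets the 1 RNA pool of a diet against the 1 pool of another, and does not compare populations of rats.

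A G protein couples a receptor at the cell surface to an enzyme or a channel inside the cell. The receptor loads the alpha subunit with GTP, alpha and the beta-gamma pair separate and act on their targets, and an RGS protein speeds the hydrolysis of GTP that ends the signal. Alpha subunits of the Gs kind switch adenylyl cyclases on and those of the Gi kind hold them back, phosphodiesterases degrade cAMP and cGMP, and in the colon wall these pathways take part in secretion by the epithelium, relaxation of smooth muscle and transmission between enteric neurons.

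The authors deposited linear MAS 5.0 signals, with every array scaled to the same average, and a trimmed mean of 500.7 to 500.8 was found on the 9 arrays. Between 58.6 and 60.2% of the probe sets on an array gave 100 or more. The 3' to 5' signal ratio of beta-actin, a measure of RNA or target length, was 2.21 ± 0.126 on the SPI arrays, 2.98 ± 0.488 on the WPH arrays and 1.86 ± 0.0256 on the CAS arrays (SD, n = 3 each), and that of GAPDH was 1.56 ± 0.0848, 1.63 ± 0.0691 and 1.56 ± 0.199 in the same order. The beta-actin ratio did not overlap between diets, at 2.14 to 2.36 on the SPI arrays, 2.53 to 3.50 on the WPH arrays and 1.83 to 1.88 on the CAS arrays. It thus went with diet, and the part of target length in the results below was not tested. By the hybridization date and time in the instrument settings, the arrays fell into 3 rounds. They are called wash rounds here as a label only, since the times read were those given for hybridization. The first held CAS arrays 1, 2 and 3 with WPH array 2, the second held SPI arrays 1 and 2 with WPH arrays 1 and 3, and the third held SPI array 3 alone, so that no round held both SPI and CAS.

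The colon wall holds several cell types, and their marker genes differed between the diets. Of 15 neuronal markers compared, 14 were higher with WPH than with CAS and 10 with SPI than with CAS, and 11 were lower with SPI than with WPH. Their summed signal was 13447 to 14224 on the SPI arrays, 21125 to 22128 on the WPH arrays and 8608 to 8887 on the CAS arrays. Among the neuronal markers on the array, Nos1 alone did not reach a mean of 100 in any diet. All 8 smooth muscle markers were higher with WPH and with SPI than with CAS, and 7 were lower with SPI than with WPH. The smooth muscle sum was 148834 to 152092 on the SPI arrays, 200104 to 225763 on the WPH arrays and 104685 to 105697 on the CAS arrays. Epithelial markers were lower than with CAS in 12 of 12 cases with WPH and in 8 with SPI, and 11 were higher with SPI than with WPH, with sums of 42188 to 44338 on the SPI arrays, 18081 to 19393 on the WPH arrays and 65964 to 71067 on the CAS arrays. Leukocyte markers, 10 in number, were higher in 6 cases with WPH and in 4 with SPI than with CAS, and 1 was higher with SPI than with WPH. Their sum was 15467 to 15630 on the SPI arrays, 12478 to 13248 on the WPH arrays and 9270 to 10257 on the CAS arrays, with Cd2 and Itgam under a mean of 100 in every diet. All 3 glial markers compared were higher with WPH than with CAS, and neither of 2 endothelial markers was called in any comparison. At an unadjusted p under 0.05 in limma neither differed without a block, and 1 was lower with SPI than with CAS with wash round as a block. In such whole tissue, fewer cells of a type and less RNA per cell cannot be told apart, and the part of cell composition in the results below was not tested.

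Of the 71 probe sets, 51 of 38 genes averaged 100 or more in some diet and were compared, among 5606 probe sets compared in all. Pde7a passed this limit only through the CAS arrays, Adcy4 only through the SPI arrays and 1 Pde4b probe set only through the WPH arrays. The other 20 had array signals of 1.8 to 165.1, and 15 of them reached 100 on no array. Adcy8, Adcy10, Gnal, Gnat3, Gnb3, Gnb4, Pde1c, Pde4d and Rgs8 had no compared probe set and are not described further. A probe set is called below when its adjusted p is under 0.05 in limma, with Benjamini-Hochberg adjustment over all 5606.

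In WPH against CAS, 22 of the 51 (43.1%) were called, against 38.8% of all compared probe sets. The direction was uneven, with 20 (39.2%) of 15 genes higher with WPH, where 20.9% of all probe sets were, and 2 (3.92%) lower with WPH, where 17.9% of all were. The median log2 change was 0.40 over the 51 and 0.06 over all probe sets. In SPI against CAS, 8 (15.7%) were called, against 22.2% of all, and all 8 were higher with SPI, where 12.0% of all probe sets were. None was called lower with SPI, where 10.2% of all probe sets were, and at an unadjusted p under 0.05 none was lower in limma and 1 was by the methods' t-test. The median log2 change was 0.13 over the 51 and -0.012 over all.

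In SPI against WPH, 8 probe sets of 5 genes (15.7%) were called, against 19.9% of all, and the 8 were lower with SPI, where 9.83% of all probe sets were. None was called higher with SPI, where 10.1% of all were, and at an unadjusted p under 0.05 there were 3 by limma and 2 by the methods' t-test. Both comparisons with CAS use the same CAS arrays, so that their changes are not independent. The mean signal was lowest with CAS, intermediate with SPI and highest with WPH for 30 of the 51 (58.8%), an order that 31.7% of all compared probe sets had. The arrays of the 2 diets did not overlap for 27 probe sets higher with WPH than with CAS (52.9%, against 28.0% of all) and for 6 lower with WPH (11.8%, against 22.4%).

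At least 2-fold and called were 3 probe sets higher with WPH than with CAS (Rgs9, Rgs4 and Rgs1, against 5.55% of all) and 1 lower (Pde7a, against 8.47%), together 4 against 14.0% of all. Pde7a counts here by its measured means alone, since its WPH arrays were all under 100 and its bound was 1.64-fold. In SPI against CAS this held for 1, Rgs9, which was higher with SPI (against 2.41% of all higher, 3.37% lower and 5.78% in either direction). In SPI against WPH it also held for 1, again Rgs9, lower with SPI (against 1.02% of all lower, 4.48% higher and 5.49% in either direction).

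**Figure D1:**
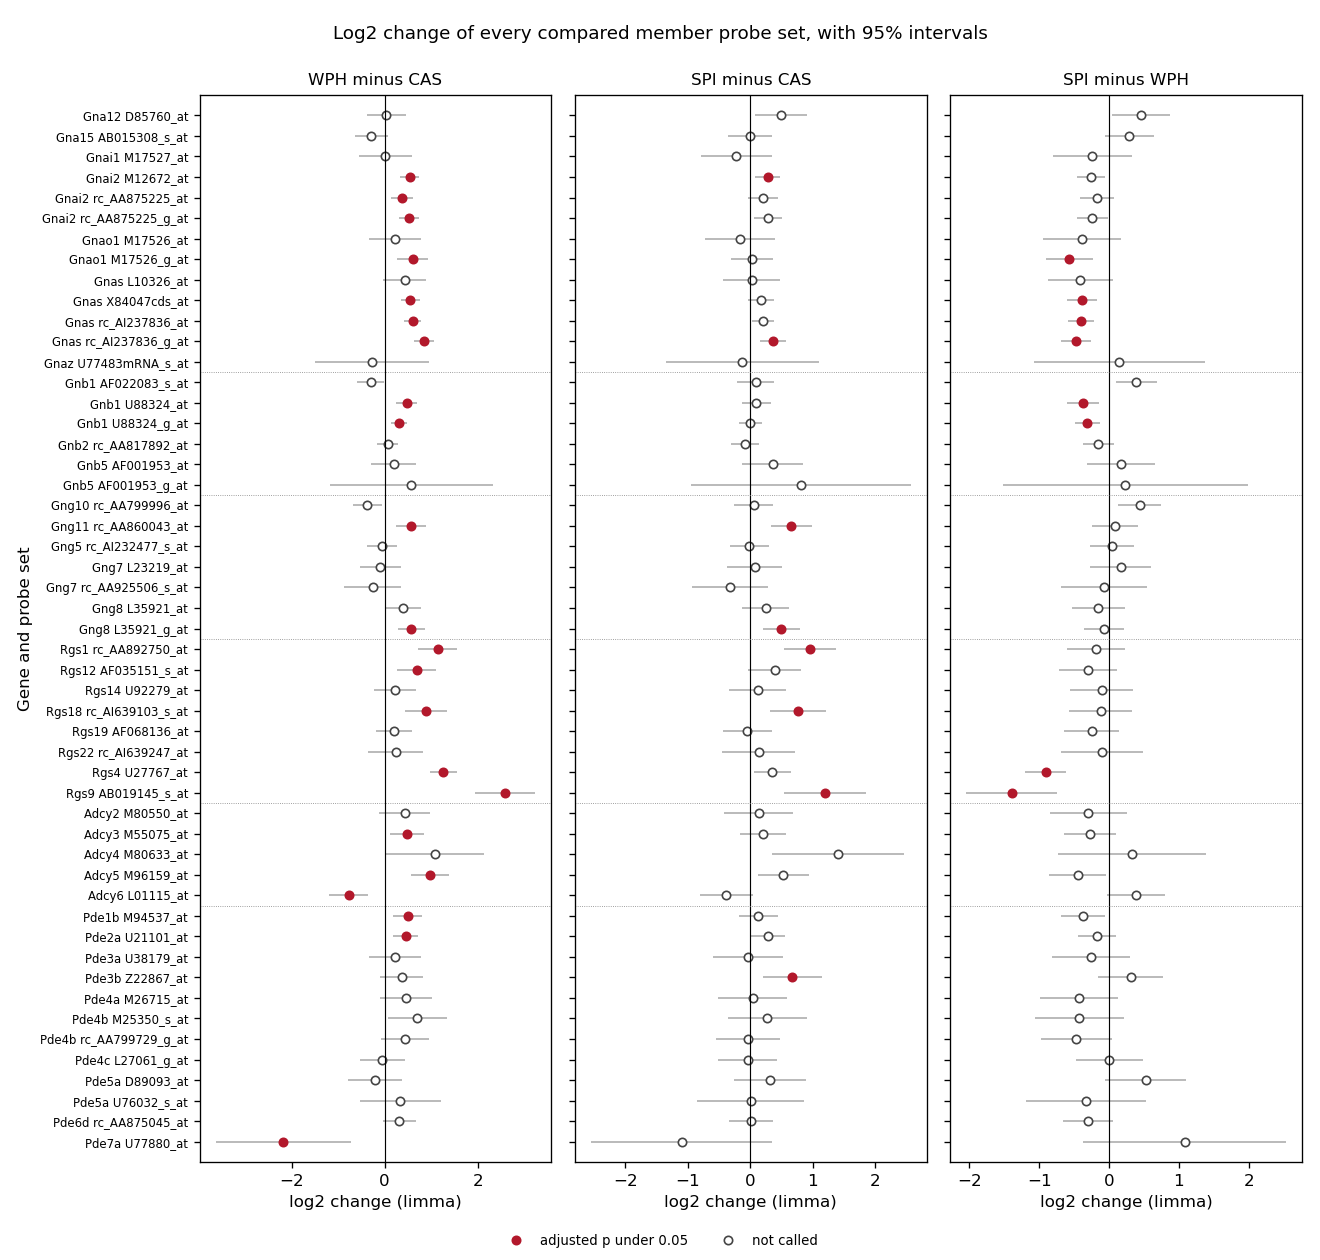
Log2 change of each of the 51 compared probe sets (rows, grouped by family with dotted lines between) in WPH minus CAS, SPI minus CAS and SPI minus WPH, with 95% intervals from limma as lines and filled red points for an adjusted p under 0.05. Called points lie right of 0 in the first panel except Adcy6 and Pde7a, right of 0 in the second and left of 0 in the third.

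The RGS family held the largest called increases among the 51. Of 8 RGS genes compared, 5 were called higher with WPH than with CAS (Rgs9, Rgs4, Rgs1, Rgs18 and Rgs12), where 20.9% of all probe sets were. Of these, 3 were also called higher with SPI than with CAS (Rgs9, Rgs1 and Rgs18, against 12.0% of all), and 2 were called lower with SPI than with WPH (Rgs9 and Rgs4, against 9.83% of all). The median log2 change of the 8 was 0.79 in WPH minus CAS and 0.37 in SPI minus CAS. No RGS probe set was called lower with either diet than with CAS. The lowest change from CAS was -0.05, that of Rgs19 with SPI, and at an unadjusted p under 0.05 no RGS gene was lower by limma.

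The stretches of 250 bases before the start site are shown for 4 of these RGS genes and for Gnao1. All of them were called higher with WPH than with CAS, but their calls in the comparisons with SPI differed. Rgs12, also called higher with WPH, is not shown. The genes shown were picked, so that their matches do not give a share. They are RefSeq sequences of the GRCr8 assembly, all on the minus strand and written 5′ to 3′, and capitals mark TGACG or its reverse complement CGTCA, the core that cAMP response elements share. Rgs9 lies at chr10:94770388-94770637, Rgs4 at chr13:84475885-84476134, Rgs1 at chr13:58573188-58573437, Rgs18 at chr13:59066343-59066592 and Gnao1 at chr19:11198438-11198687.
Rgs9: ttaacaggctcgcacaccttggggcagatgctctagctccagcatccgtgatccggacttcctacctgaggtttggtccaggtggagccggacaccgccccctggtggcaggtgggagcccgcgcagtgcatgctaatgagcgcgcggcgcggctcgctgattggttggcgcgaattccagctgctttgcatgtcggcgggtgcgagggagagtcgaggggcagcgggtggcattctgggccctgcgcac
Rgs4: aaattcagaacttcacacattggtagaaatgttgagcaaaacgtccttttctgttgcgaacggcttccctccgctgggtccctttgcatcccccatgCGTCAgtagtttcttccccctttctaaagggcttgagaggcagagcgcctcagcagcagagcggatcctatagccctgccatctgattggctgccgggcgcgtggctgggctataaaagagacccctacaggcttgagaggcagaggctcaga
Rgs1: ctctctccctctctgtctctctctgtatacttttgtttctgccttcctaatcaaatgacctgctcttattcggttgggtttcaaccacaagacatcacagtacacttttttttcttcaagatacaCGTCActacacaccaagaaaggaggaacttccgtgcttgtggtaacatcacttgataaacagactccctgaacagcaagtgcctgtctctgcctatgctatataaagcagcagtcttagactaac
Rgs18: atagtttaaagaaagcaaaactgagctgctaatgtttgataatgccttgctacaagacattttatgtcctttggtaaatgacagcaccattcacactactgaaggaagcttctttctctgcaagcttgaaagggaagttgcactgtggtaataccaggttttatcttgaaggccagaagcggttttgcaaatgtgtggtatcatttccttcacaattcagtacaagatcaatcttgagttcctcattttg
Gnao1: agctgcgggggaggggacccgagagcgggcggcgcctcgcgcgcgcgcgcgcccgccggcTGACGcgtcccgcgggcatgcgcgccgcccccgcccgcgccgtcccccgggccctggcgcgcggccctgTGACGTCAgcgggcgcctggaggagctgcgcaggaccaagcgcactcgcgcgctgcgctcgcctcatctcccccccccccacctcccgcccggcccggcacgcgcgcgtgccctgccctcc
The Rgs9 and Rgs18 stretches held no match. Rgs4 held 1, whose first base lay 153 bases before the start site, and Rgs1 held 1 at 125 bases before it. Gnao1 held matches at 190, 121 and 118 bases before its start, and the last 2 overlap as the whole palindrome TGACGTCA. Over windows that ran 50 bases past the start, TGACG on either strand was found in 21.2% of 33469 RefSeq rat promoters. It was in 11 of 45 promoters (24.4%) of the 34 member genes that the promoter table holds. Of the 15 genes higher with WPH than with CAS, 11 were among these, and 4 of their 14 promoters (28.6%) held a match. The palindrome was in 1.83% of all promoters and in 1 of the 45 (2.22%), which was that of Gnao1. Rgs1 and Rgs18 are neighbours on chromosome 13, with Rgs21 as the only protein-coding gene of the RefSeq annotation between them.

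Rgs9 belongs to the RGS proteins that pair with the beta subunit Gnb5, and it is known from photoreceptors and from striatal neurons. On its probe set AB019145_s_at the signal was 235, 185 and 156 on the SPI arrays, 464, 501 and 525 on the WPH arrays and 129.7, 50.4 and 86.0 on the CAS arrays. The groups did not overlap, the lowest WPH array was above every SPI array, and 2 of the 3 CAS arrays were under 100. The mean was 5.60-fold higher with WPH than with CAS (a log2 change of 2.59 ± 0.30 (SE), adjusted p = 3.64e-05), the largest increase of the 51. It was 2.16-fold higher with SPI than with CAS (a log2 change of 1.197 ± 0.30 (SE), adjusted p = 0.0136) and 2.59-fold lower with SPI than with WPH (a log2 change of -1.39 ± 0.30 (SE), adjusted p = 0.00668). The SPI against CAS call ended without SPI array 1 (adjusted p = 0.0583). With wash round as a block neither SPI against CAS (adjusted p = 0.252) nor SPI against WPH (adjusted p = 0.0791) was called. An exact two-sided permutation test over the arrays gave p = 0.1 in each of the 3 comparisons, the smallest that 3 arrays against 3 allow.

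Its partner Gnb5 did not move with it to the point of a call. The probe set AF001953_at gave 133, 148 and 142 on the SPI arrays, 135, 96.8 and 151 on the WPH arrays and 106, 119.5 and 105 on the CAS arrays, and AF001953_g_at, of the same sequence, spread from 35.5 to 357 on the SPI arrays. Adjusted p for Gnb5 was 0.297 or more in every comparison. Of the photoreceptor markers on the array, Sag and Prph2 did not reach a mean of 100 in any diet and Rom1 was called in no comparison, at an unadjusted p under 0.05 included.

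Rgs4, a regulator of Gi and Gq signals known from neurons and smooth muscle, was highest with WPH. U27767_at gave 229, 239 and 218 on the SPI arrays, 458, 407 and 425 on the WPH arrays and 199.5, 167 and 172 on the CAS arrays. All WPH arrays lay above all SPI arrays and those above all CAS arrays. The mean was 2.40-fold higher with WPH than with CAS (a log2 change of 1.26 ± 0.14 (SE), adjusted p = 2.28e-05) and 1.88-fold lower with SPI than with WPH (a log2 change of -0.91 ± 0.14 (SE), adjusted p = 0.000751). SPI against CAS was not called, with a log2 change of 0.35, a 95% interval of 0.06 to 0.65 and an adjusted p of 0.0879 in limma. The exact permutation p was again 0.1 in each comparison.

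Rgs1 and Rgs18 are known from leukocytes and, for Rgs18, platelets. Rgs1 on rc_AA892750_at had signals of 658, 425 and 756 on the SPI arrays, 741, 674 and 627 on the WPH arrays and 292, 299 and 338 on the CAS arrays. Every SPI and WPH array was above every CAS array, whereas SPI and WPH arrays overlapped, and SPI array 2 was the lowest of the 6. Rgs1 was 2.20-fold higher with WPH (a log2 change of 1.14 ± 0.19 (SE), adjusted p = 0.000583) and 1.98-fold higher with SPI than with CAS (a log2 change of 0.95 ± 0.19 (SE), adjusted p = 0.00408). Rgs18 on rc_AI639103_s_at had 378, 283 and 274 on the SPI arrays, 369, 313 and 327 on the WPH arrays and 209, 214 and 134 on the CAS arrays. It too was above CAS on every SPI and WPH array, by 1.81-fold with WPH (a log2 change of 0.89 ± 0.20 (SE), adjusted p = 0.00481) and 1.68-fold with SPI (a log2 change of 0.76 ± 0.20 (SE), adjusted p = 0.0199). Adjusted p for Rgs18 in SPI against CAS was 0.0672 without CAS array 3 and 0.0871 without SPI array 1. Between SPI and WPH the log2 change had a 95% interval of -0.60 to 0.23 for Rgs1 and -0.57 to 0.33 for Rgs18. Of the 10 leukocyte markers, 6 were higher with WPH and 4 with SPI than with CAS, where 20.9% and 12.0% of all probe sets were. The part of these markers in the Rgs1 and Rgs18 results was not tested.

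Rgs12, a large RGS protein with further binding domains, gave 197, 229 and 234 on the SPI arrays, 264, 279 and 268 on the WPH arrays and 126, 205 and 183 on the CAS arrays on AF035151_s_at. The WPH arrays agreed within a narrow range and lay above all others, and the SPI and CAS arrays overlapped. It was 1.58-fold higher with WPH than with CAS (a log2 change of 0.69 ± 0.19 (SE), adjusted p = 0.0136), and neither SPI against CAS (adjusted p = 0.181) nor SPI against WPH (adjusted p = 0.315) was called. The remaining RGS genes, Rgs14, Rgs19 (also known as GAIP) and Rgs22, had array signals of 97.6 to 454 and log2 changes of -0.25 to 0.23, with no call.

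**Figure D2:**
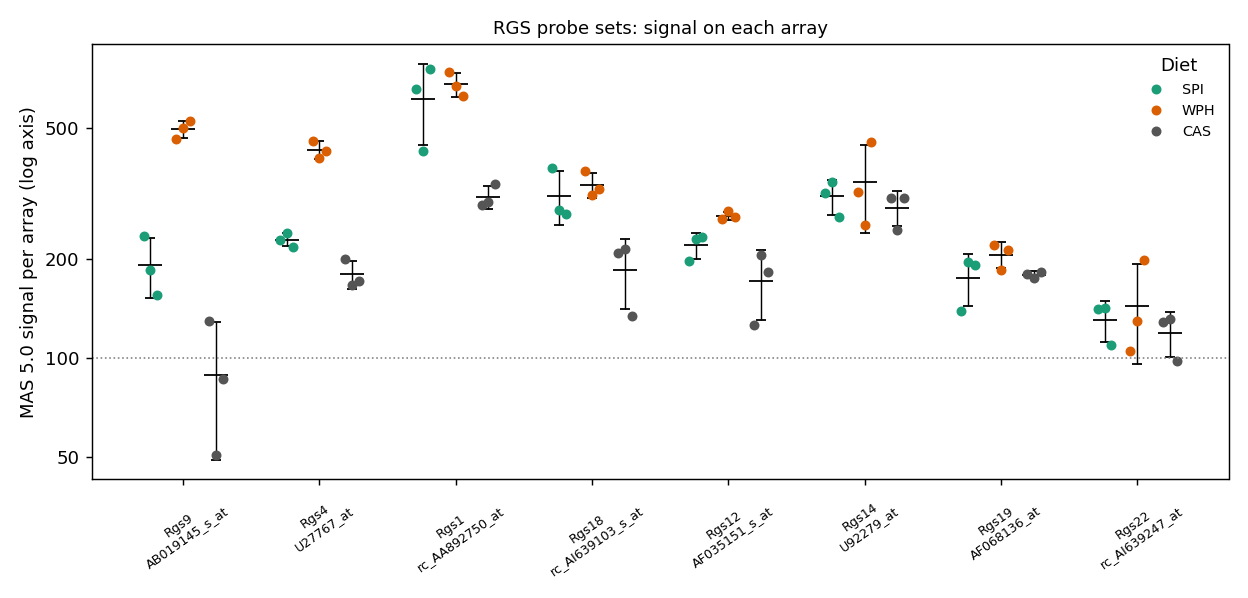
MAS 5.0 signal on each array (points, log axis) of the 8 compared RGS probe sets, with SPI, WPH and CAS from left to right within each gene. Horizontal bars are means, vertical bars SD (n = 3 arrays of 1 RNA pool), and the dotted line is the signal of 100. Rgs9 and Rgs4 stand apart in WPH, and Rgs1 and Rgs18 are high in SPI and WPH alike.

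Among the alpha subunits, Gnas, Gnai2 and Gnao1 were called higher with WPH than with CAS, by 7 of the 13 Gna probe sets (53.8%, against 20.9% of all probe sets higher with WPH), and none was called lower. At an unadjusted p under 0.05 in limma no Gna probe set was lower with WPH. Gnas encodes Gs alpha, which stimulates adenylyl cyclase, and its locus gives several overlapping transcripts that the probe sets were not assigned to here. The brightest of its 4 probe sets, rc_AI237836_g_at, gave 12829, 13304 and 12199 on the SPI arrays, 16312, 19867 and 17235 on the WPH arrays and 8823, 10348 and 10661 on the CAS arrays. The 3 diets did not overlap. The mean was 1.79-fold higher with WPH (a log2 change of 0.84 ± 0.10 (SE), adjusted p = 3.78e-05) and 1.28-fold higher with SPI than with CAS (a log2 change of 0.37 ± 0.10 (SE), adjusted p = 0.0188), and 1.39-fold lower with SPI than with WPH (a log2 change of -0.47 ± 0.10 (SE), adjusted p = 0.00535). Under quantile normalization its WPH against CAS change was 0.44 (adjusted p = 0.00262), its SPI against CAS change had an adjusted p of 0.177 and its SPI against WPH change one of 0.0799, and the SPI against CAS value was 0.0837 without CAS array 1, 0.0577 without SPI array 1 and 0.051 without SPI array 2.

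The other Gnas probe sets had higher means with WPH than with CAS too, and 2 of these 3 were called. On rc_AI237836_at, of the same sequence, the signals were 7109.8, 6223 and 6389 on the SPI arrays, 8947, 8658 and 8429 on the WPH arrays and 5379, 6198 and 5554 on the CAS arrays, 1.52-fold higher with WPH than with CAS (a log2 change of 0.61 ± 0.08 (SE), adjusted p = 0.000147) and 1.32-fold lower with SPI than with WPH (adjusted p = 0.00588). X84047cds_at averaged 2688 ± 43.2 with SPI, 3523 ± 384 with WPH and 2396 ± 171 with CAS (SD, n = 3 each), with log2 changes of 0.55 ± 0.10, adjusted p = 0.000806, in WPH minus CAS and -0.38 ± 0.10, adjusted p = 0.0167, in SPI minus WPH. The SPI against WPH call on X84047cds_at was lost when single arrays were left out, with adjusted p of 0.0508 without SPI array 1, 0.0542 without SPI array 3 and 0.068 without WPH array 2. The dim L10326_at, at 253 ± 55.8 with SPI, 334 ± 62.0 with WPH and 248 ± 44.4 with CAS, was not called (0.43 ± 0.21, adjusted p = 0.134, in WPH minus CAS).

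Gnai2, the widespread Gi alpha subunit that holds adenylyl cyclase back, had 3 probe sets, and all were called higher with WPH than with CAS. M12672_at averaged 3346 ± 126 with SPI, 4001 ± 242 with WPH and 2764 ± 255 with CAS (SD, n = 3 each), rc_AA875225_g_at 3537 ± 160 with SPI, 4189 ± 371 with WPH and 2924 ± 314 with CAS, and rc_AA875225_at 2238 ± 67.2 with SPI, 2525 ± 260 with WPH and 1949 ± 233 with CAS. Their increases were 1.45-fold, 1.43-fold and 1.30-fold in that order, with adjusted p of 0.000692, 0.00157 and 0.0179 in limma. For rc_AA875225_at adjusted p was 0.0638 without CAS array 2 and 0.0774 without WPH array 2. SPI arrays lay between the other diets on all 3 probe sets without overlap, and only M12672_at was called in SPI against CAS (a log2 change of 0.28 ± 0.09 (SE), adjusted p = 0.0497). That call sits at the threshold and was lost in 13 of 19 alternatives, with adjusted p from 0.0323 to 0.369 over them. Adjusted p on this probe set was 0.197 without CAS array 1, 0.0959 without CAS array 3, 0.0784 without SPI array 1, 0.106 without SPI array 2, 0.124 without SPI array 3, 0.0651 without WPH array 2 and 0.0597 without WPH array 3.

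Gnao1, the Go alpha subunit abundant in neurons, had 2 probe sets of 1 sequence that differed in brightness. M17526_g_at gave 608, 589 and 702 on the SPI arrays, 759.9, 936 and 1154 on the WPH arrays and 655, 563 and 641 on the CAS arrays. All WPH arrays were above the other 6, and SPI and CAS arrays overlapped. Its mean was 1.53-fold higher with WPH than with CAS (a log2 change of 0.60 ± 0.15 (SE), adjusted p = 0.0083) and 1.5-fold lower with SPI than with WPH (a log2 change of -0.57 ± 0.15 (SE), adjusted p = 0.022), and for the second of these adjusted p was 0.0717 without SPI array 1, 0.0595 without SPI array 2, 0.0623 without WPH array 2 and 0.0763 without WPH array 3. The dimmer M17526_at, with 220.4, 187 and 349 on the WPH arrays and 251, 234 and 153 on the CAS arrays, was not called (0.23 ± 0.26, adjusted p = 0.52).

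Gna12, Gna15, which couples to phospholipase C, and Gnai1 and Gnaz, which inhibit adenylyl cyclase, were called in no comparison. Gna12 on D85760_at averaged 258 ± 46.4 with SPI, 187 ± 31.1 with WPH and 180.4 ± 5.92 with CAS, with an adjusted p of 0.0859 in SPI against CAS. The other 3 had log2 changes of -0.29 to 0.29 and array signals of 37.1 to 280.4.

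The beta and gamma subunits showed calls in few genes. Gnb1, the common beta subunit, had 3 probe sets that did not agree. U88324_g_at averaged 2033 ± 115 with SPI, 2517 ± 71.0 with WPH and 2029 ± 48.8 with CAS (SD, n = 3 each), 1.24-fold higher with WPH than with CAS (adjusted p = 0.00998) and 1.24-fold lower with SPI than with WPH (adjusted p = 0.0206). U88324_at, of the same sequence, averaged 1065 ± 76.8 with SPI, 1379 ± 126 with WPH and 993 ± 58.5 with CAS, with log2 changes of 0.47 ± 0.11, adjusted p = 0.00399, in WPH minus CAS and -0.37 ± 0.11, adjusted p = 0.0288, in SPI minus WPH. The dimmer AF022083_s_at, at 376 ± 19.6 with SPI, 287 ± 20.5 with WPH and 355 ± 46.4 with CAS, went the other way without a call (-0.30 ± 0.13, adjusted p = 0.104, in WPH minus CAS and 0.39 ± 0.13, adjusted p = 0.0659, in SPI minus WPH). Without single arrays, the SPI against WPH adjusted p was 0.0885 without SPI array 1, 0.0603 without WPH array 1 and 0.0569 without WPH array 3 on U88324_g_at, and 0.0668 without SPI array 1, 0.0802 without SPI array 2, 0.0969 without WPH array 1 and 0.0639 without WPH array 3 on U88324_at. Gnb2 averaged 1495 ± 44.9 with SPI, 1667 ± 162 with WPH and 1587 ± 133 with CAS and was not called.

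Of 7 gamma subunit probe sets, 2 were called higher with WPH than with CAS (28.6%, against 20.9% of all), and the same 2 with SPI than with CAS (28.6%, against 12.0%). Gng11 on rc_AA860043_at gave 583, 454 and 438 on the SPI arrays, 465, 397 and 529 on the WPH arrays and 297, 316 and 317 on the CAS arrays, above CAS on all 6 SPI and WPH arrays. It was 1.58-fold higher with SPI (a log2 change of 0.65 ± 0.15 (SE), adjusted p = 0.00902) and 1.49-fold higher with WPH than with CAS (a log2 change of 0.57 ± 0.15 (SE), adjusted p = 0.0101). With wash round as a block these changes were 0.41 (adjusted p = 0.455) with SPI and 0.36 (adjusted p = 0.236) with WPH. Gng8, first known from olfactory and vomeronasal neurons, averaged 742 ± 88.6 with SPI, 779 ± 78.8 with WPH and 525 ± 57.7 with CAS on L35921_g_at (SD, n = 3 each), with means 1.48-fold above CAS in WPH (adjusted p = 0.00519) and 1.41-fold higher with SPI than with CAS (adjusted p = 0.0198). The SPI change on L35921_g_at was 0.23 (adjusted p = 0.703) with wash round as a block. Without a block, that call had an adjusted p of 0.0819 without CAS array 1, 0.0502 without CAS array 2, 0.0679 without SPI array 1 and 0.0791 without SPI array 3. Its second probe set, L35921_at, averaged 200.5 ± 8.86 with SPI, 225 ± 42.0 with WPH and 169.7 ± 17.2 with CAS and was not called (adjusted p = 0.0943 in WPH against CAS).

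The remaining gamma subunits lay close together across the diets or, for Gng10, near the threshold. Gng10 on rc_AA799996_at averaged 1621 ± 257 with SPI, 1198 ± 188 with WPH and 1546 ± 107 with CAS, with log2 changes of -0.38 ± 0.14, adjusted p = 0.0553, in WPH minus CAS and 0.44 ± 0.14, adjusted p = 0.0518, in SPI minus WPH. Gng5 and both Gng7 probe sets had log2 changes of -0.32 to 0.17 and no call.

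**Figure D3:**
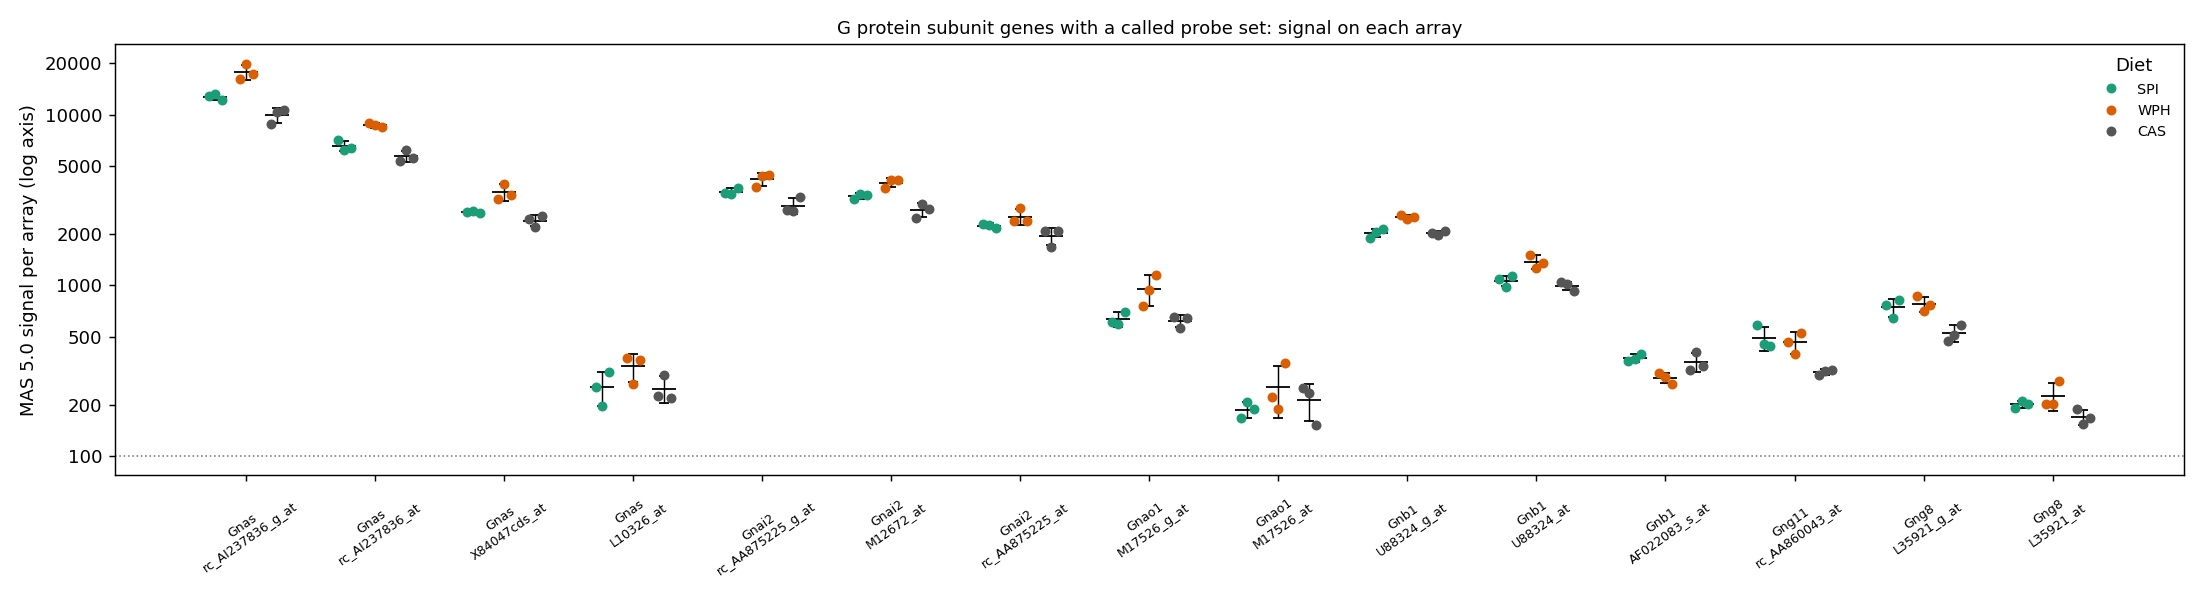
MAS 5.0 signal on each array (points, log axis) of every compared probe set of the 6 subunit genes with a call, with SPI, WPH and CAS from left to right, means and SD as bars (n = 3) and a dotted line at 100. The probe sets of Gnas and Gnai2 keep WPH highest, whereas AF022083_s_at of Gnb1 has WPH lowest.

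Of 5 adenylyl cyclases compared, enzymes that make cAMP, 2 were called higher with WPH than with CAS (40%, against 20.9% of all probe sets). A further 1 was called lower with WPH (20%, against 17.9% of all). Adcy5, a Gi-inhibited cyclase of striatum and heart, gave 279, 343 and 281 on the SPI arrays, 345, 482 and 411 on the WPH arrays and 245, 222 and 165 on the CAS arrays on M96159_at. No diets overlapped on this probe set. Its mean was 1.96-fold higher with WPH than with CAS (a log2 change of 0.98 ± 0.19 (SE), adjusted p = 0.00143), and SPI against CAS (adjusted p = 0.0656) and SPI against WPH (adjusted p = 0.121) were not called. The 2 other Adcy5 probe sets did not reach a mean of 100 in any diet.

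Adcy6, the close relative of Adcy5 with a wider tissue range, went the other way. L01115_at gave 410.1, 446 and 562 on the SPI arrays, 360.4, 466 and 274 on the WPH arrays and 562, 597 and 678 on the CAS arrays, and the WPH and CAS arrays did not overlap. The mean was 1.67-fold lower with WPH than with CAS (a log2 change of -0.77 ± 0.19 (SE), adjusted p = 0.00759). With wash round as a block the change was -0.39 (adjusted p = 0.215), and within the first round it was -0.39 (adjusted p = 0.149), neither of them called. SPI against CAS was -0.38 ± 0.19, adjusted p = 0.191. Adcy3, known from olfactory neurons, averaged 309 ± 41.1 with SPI, 372 ± 38.7 with WPH and 269 ± 49.4 with CAS (SD, n = 3 each) and was called higher with WPH than with CAS (a log2 change of 0.48 ± 0.17 (SE), adjusted p = 0.0414). That call was lost in 9 of 20 alternatives, and without single arrays adjusted p was 0.101 without CAS array 1, 0.141 without CAS array 2, 0.129 without WPH array 1 and 0.0847 without WPH array 2. Adcy2 averaged 234 ± 51.3 with SPI, 287 ± 61.7 with WPH and 214 ± 55.1 with CAS and was not called. Adcy4 had 143, 91.5 and 88.6 on the SPI arrays, 98.5, 93.6 and 63.6 on the WPH arrays and 19.5, 75.1 and 42.3 on the CAS arrays, with adjusted p of 0.058 in SPI against CAS and 0.0998 in WPH against CAS.

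Among 12 Pde probe sets of 10 genes, 2 were called higher with WPH than with CAS (16.7%, against 20.9% of all), 1 lower with WPH (8.33%, against 17.9%) and 1 higher with SPI than with CAS (8.33%, against 12.0%). Pde1b, a calmodulin-dependent enzyme of both cyclic nucleotides, averaged 301 ± 29.4 with SPI, 390.1 ± 47.2 with WPH and 275 ± 19.7 with CAS (SD, n = 3 each). It was 1.42-fold higher with WPH than with CAS (a log2 change of 0.50 ± 0.14 (SE), adjusted p = 0.016), and adjusted p was 0.0627 without CAS array 3, 0.0515 without WPH array 1 and 0.0558 without WPH array 3. The Pde1b change was 0.29 (adjusted p = 0.312) with wash round as a block. Pde2a, which cGMP stimulates, averaged 622 ± 70.3 with SPI, 699 ± 49.9 with WPH and 512 ± 47.0 with CAS and was 1.36-fold higher with WPH than with CAS (a log2 change of 0.45 ± 0.12 (SE), adjusted p = 0.0133), with an adjusted p of 0.0503 without WPH array 1. On both probe sets every WPH array lay above every CAS array.

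Pde7a, a cAMP-specific enzyme known from T cells and muscle, averaged 100 or more only with CAS. U77880_at gave 50.2, 79.4 and 110.0 on the SPI arrays, 67.8, 69.4 and 9.80 on the WPH arrays and 163, 188 and 141 on the CAS arrays. All 3 WPH arrays were under 100, so that the fall with WPH is at least 1.64-fold against a signal of 100, and WPH array 3 was far below the other WPH arrays (a log2 change of -2.18 ± 0.66 (SE), adjusted p = 0.0212). The change was -1.40 (adjusted p = 0.00312) with a floor of 50, -1.25 (adjusted p = 0.0175) without WPH array 3 and -1.23 (adjusted p = 0.369) with wash round as a block. Adjusted p was 0.0547 without CAS array 1 and 0.0657 without CAS array 2, and SPI against CAS was not called (-1.10 ± 0.66, adjusted p = 0.283).

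Pde3b, the cGMP-inhibited enzyme of adipocytes and liver, was the one gene called in SPI against CAS and in no other comparison. Z22867_at gave 212, 158 and 161 on the SPI arrays, 137, 170.0 and 121 on the WPH arrays and 100.4, 110.2 and 119 on the CAS arrays. SPI and CAS arrays did not overlap, whereas the WPH arrays overlapped those of SPI. The mean was 1.61-fold higher with SPI than with CAS (a log2 change of 0.68 ± 0.21 (SE), adjusted p = 0.0416), and the call was lost in 11 of 18 alternatives, among them adjusted p of 0.124 without CAS array 1, 0.0826 without CAS array 2, 0.0691 without CAS array 3, 0.164 without SPI array 1, 0.0527 without SPI array 2, 0.0718 without SPI array 3 and 0.0511 without WPH array 1. The markers of adipocytes, 4 compared, were higher in 3 cases with SPI and in 3 with WPH than with CAS, where 12.0% and 20.9% of all probe sets were. Plin1 was under a mean of 100 in every diet. The adipocyte markers had a sum of 8085 to 8725 on the SPI arrays, 10744 to 12391 on the WPH arrays and 4849 to 5797 on the CAS arrays. Their part in the Pde3b result was not tested. The Pde3b change was 1.14 (adjusted p = 0.146) with wash round as a block.

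The other Pde genes compared were Pde3a, Pde4a, Pde4b, Pde4c, Pde5a and Pde6d, which include the cAMP-specific type 4 enzymes and the cGMP-specific Pde5a of smooth muscle. Their log2 changes ran from -0.21 to 0.70 in WPH minus CAS and from -0.042 to 0.315 in SPI minus CAS, and none was called. At an unadjusted p under 0.05 in limma, 1 was higher with WPH than with CAS, the dim Pde4b probe set M25350_s_at (0.70 ± 0.29, adjusted p = 0.0784). The brightest, Pde4b on rc_AA799729_g_at, had 888, 827 and 445 on the SPI arrays, 974, 824 and 1083 on the WPH arrays and 824, 665 and 637 on the CAS arrays, with SPI array 3 far below the other SPI arrays.

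**Figure D4:**
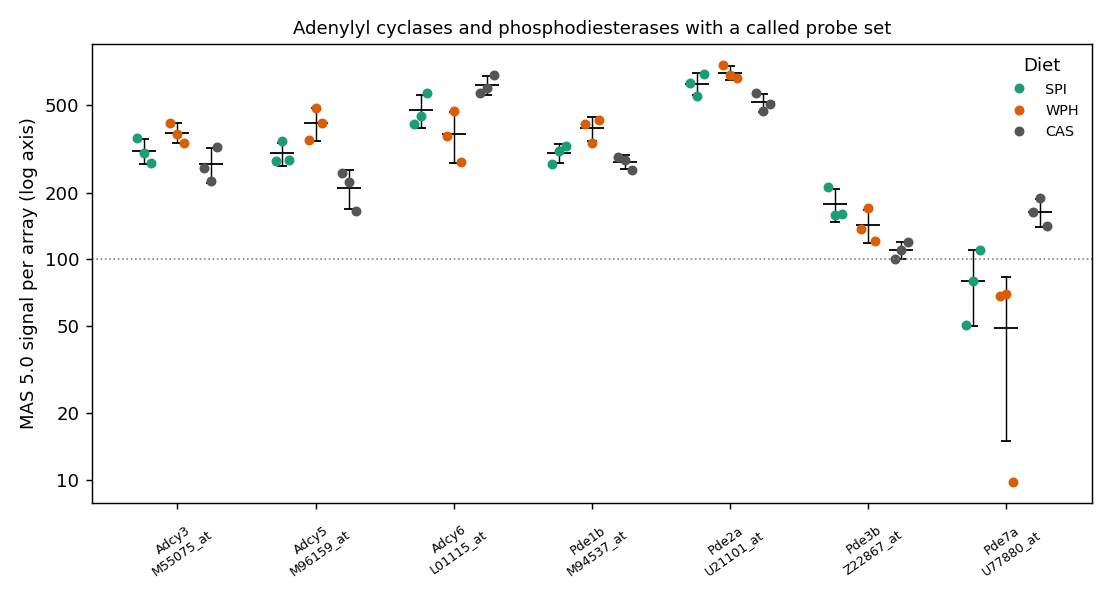
MAS 5.0 signal on each array (points, log axis) of the adenylyl cyclase and phosphodiesterase probe sets called in any comparison, with SPI, WPH and CAS from left to right, means and SD as bars (n = 3) and a dotted line at 100. Adcy6 and Pde7a are highest in CAS, Pde3b is highest in SPI, and the other 4 are highest in WPH.

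With wash round as a term in the fit, 27 of the 38 calls passed the threshold no longer. Some of the lost changes were smaller with the block and others larger. In WPH minus CAS, Gng11 was at 0.57 without the block and 0.36 with it, and Rgs12 at 0.69 and 0.74. In WPH against CAS, 10 of 22 calls were kept, those of Adcy5, Rgs1, Rgs4, Rgs9, all 3 Gnai2 probe sets and the 3 called Gnas probe sets. With the block the log2 change was 2.60 (adjusted p = 0.00293) for Rgs9, 1.19 (adjusted p = 0.00303) for Rgs4, 1.12 (adjusted p = 0.0103) for Rgs1, 1.21 (adjusted p = 0.00983) for Adcy5 and 1.00 (adjusted p = 0.000663) for the brightest Gnas probe set. The lost calls had adjusted p of 0.0883 to 0.369. Within the first round, which sets WPH array 2 against the 3 CAS arrays and assumes that the lone array varies like the rest, 12 were called, and Gnao1 and Pde7a were among them.

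In SPI against CAS, none of the 8 calls was kept with the block (adjusted p of 0.0749 to 0.703), where SPI reaches CAS only through the WPH arrays and SPI array 3 is fitted exactly, and no within-round value can be had. At an unadjusted p under 0.05, 7 of the 51 were then higher and 1 lower with SPI. These counts have no share over all probe sets beside them, so they are not read as a shift of the members. In SPI against WPH, Rgs4 alone was kept, at -0.91 (adjusted p = 0.0127), and the lost calls had adjusted p of 0.054 to 0.154. Within the second round, Rgs4 at -0.91 (adjusted p = 0.0386) and Rgs9 at -1.24 (adjusted p = 0.0225) were called. All 38 changes kept their direction with the block.

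The genes around the module were counted from lists of ligands, receptors and effectors, with 1 probe set per gene. The counts stand against 20.9% of all probe sets higher and 17.9% lower with WPH than with CAS, 12.0% higher and 10.2% lower with SPI than with CAS, and 10.1% higher and 9.83% lower with SPI than with WPH, and the medians against 0.06 over all in WPH minus CAS. In the synthesis of cGMP, 11 genes were compared, and of these 4 were higher and 3 lower with WPH than with CAS, 2 were higher and 2 lower with SPI than with CAS, and 3 were higher and 2 lower with SPI than with WPH. The median log2 change of the 11 in WPH minus CAS was -0.15. Guca2a, which encodes guanylin, the peptide that drives fluid secretion, averaged 3372 ± 234 with SPI, 2645 ± 162 with WPH and 11055 ± 1136 with CAS (log2 change -2.06, adjusted p = 5.44e-08, in WPH minus CAS and -1.71, adjusted p = 4.94e-07, in SPI minus CAS). Its receptor Gucy2c averaged 943 ± 14.6 with SPI, 375 ± 23.9 with WPH and 1715 ± 135 with CAS (-2.19, adjusted p = 4.82e-08, in WPH minus CAS and 1.33, adjusted p = 4.37e-06, in SPI minus WPH). Guca2b, uroguanylin, averaged 414 ± 15.3 with SPI, 140.5 ± 70.2 with WPH and 408 ± 37.0 with CAS and was called lower with WPH than with CAS (-1.70, adjusted p = 0.00192) and higher with SPI than with WPH (1.72, adjusted p = 0.00439). These are genes of the epithelium, whose 12 markers fell with WPH, and the part of this in their values was not tested. Npr1, the receptor for atrial natriuretic peptide, was higher with WPH than with CAS, at 549 ± 22.8 with SPI, 1091 ± 117 with WPH and 343 ± 13.1 with CAS (1.67, adjusted p = 7.45e-07).

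Downstream of cyclic nucleotides, 17 effector genes were compared, and 4 were higher and 2 lower with WPH than with CAS, 3 higher and 1 lower with SPI than with CAS, and 3 lower with SPI than with WPH. Higher calls with WPH were close to the share over all probe sets and lower calls below it, and the median log2 change in WPH minus CAS was 0.07. Pkia, an inhibitor of protein kinase A, averaged 982 ± 77.8 with SPI, 1851 ± 196 with WPH and 751 ± 43.0 with CAS (1.30, adjusted p = 3.61e-06, in WPH minus CAS), and Ppp1r1a, an inhibitor of protein phosphatase 1, averaged 584 ± 72.8 with SPI, 967 ± 111 with WPH and 372 ± 26.6 with CAS (1.38, adjusted p = 9.22e-06). Prkg2, the cGMP-dependent kinase of intestinal epithelium, averaged 112 ± 18.2 with SPI, 118 ± 22.6 with WPH and 291 ± 14.9 with CAS and was lower with WPH (-1.32, adjusted p = 0.000407) and with SPI (-1.39, adjusted p = 0.000722) than with CAS. Pkib, another inhibitor of protein kinase A, was under 100 on every WPH array and at least 1.77-fold lower with WPH than with CAS (adjusted p = 0.00612).

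Of 6 effectors of Gq signals, 2 were higher and 1 lower with WPH than with CAS, 1 higher and 1 lower with SPI than with CAS, and 1 higher and 1 lower with SPI than with WPH. Their median log2 change was 0.41 in WPH minus CAS. Plcb1, a phospholipase C, averaged 938 ± 6.81 with SPI, 1192 ± 25.4 with WPH and 655 ± 28.9 with CAS (0.86, adjusted p = 1.68e-05, in WPH minus CAS). Itpr1 was likewise higher with WPH than with CAS (0.60, adjusted p = 0.00605) and Itpr3, both being inositol trisphosphate receptors, was lower (-0.96, adjusted p = 3.8e-05).

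Among 17 receptors that couple to Gs, 3 were higher and 1 lower with WPH than with CAS, 2 higher and 2 lower with SPI than with CAS, and 2 lower with SPI than with WPH. Both counts with WPH were below the shares over all probe sets, and the median log2 change was 0.19. Vipr2, a receptor for vasoactive intestinal peptide, averaged 118 ± 4.72 with SPI, 225 ± 33.5 with WPH and 65.9 ± 15.9 with CAS, with every CAS array under 100, so that it was at least 2.25-fold higher with WPH than with CAS (adjusted p = 0.000141), and the beta-adrenergic receptor Adrb3 averaged 918 ± 103 with SPI, 1377 ± 152 with WPH and 678 ± 73.4 with CAS (1.02, adjusted p = 7.16e-05). Adora2b, an adenosine receptor, was lower with WPH (-1.46, adjusted p = 7.87e-05) and with SPI (-1.13, adjusted p = 0.00125) than with CAS. Vipr1 averaged 100 or more only with CAS, whose arrays gave 159.4, 80.6 and 68.9, so that CAS array 1 alone reached 100. It was under 100 on every SPI array, which bounds the fall with SPI at 1.03-fold or more (adjusted p = 0.0423). Vipr1 is 1 of the 2 counted as lower with SPI than with CAS.

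Of 17 receptors that couple to Gi or Go, 2 were higher with WPH than with CAS, 3 higher and 1 lower with SPI than with CAS, and 2 lower with SPI than with WPH. The count higher with WPH was below the share over all probe sets, and the median log2 change in WPH minus CAS was 0.11. The cannabinoid receptor Cnr1 averaged 175 ± 33.2 with SPI, 257 ± 13.8 with WPH and 118 ± 3.56 with CAS (1.12, adjusted p = 0.000451, in WPH minus CAS), and Gabbr1, a GABA-B receptor subunit, averaged 478 ± 27.3 with SPI, 676 ± 21.1 with WPH and 342 ± 26.2 with CAS (0.98, adjusted p = 3.33e-05). The somatostatin receptors Sstr1 and Sstr2 were called in SPI against CAS, but only as bounds, and both are in the counts above. Sstr1, which averaged 100 or more only with SPI, was at least 1.01-fold higher with SPI (adjusted p = 0.0494), and Sstr2, which did so only with CAS, at least 1.19-fold lower (adjusted p = 0.0403). None of 6 receptor kinases, arrestins and phosducin-like genes was called in any comparison, and at an unadjusted p under 0.05 none was either, by the methods' t-test or by limma without a block. With wash round as a block, 1 was higher and 1 lower with SPI than with CAS and 1 higher with SPI than with WPH at that unadjusted p.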

How the data were processed

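Deposited signal values came from MAS 5.0, in which the authors had set the average of each Affymetrix array at 500, and no detection calls were used here. Of the deposited instrument settings, only the hybridization date and time were read. A gap of over 60 minutes began a new round, called a wash round here. Signals under 0.1 were set to 0.1 and changed to log2 without further normalization. Probe sets with a mean of at least 100 in a diet, other than 59 controls, were fitted in 1 model of 9 arrays by limma 3.58.1 (R 4.3.3, variance trend on, checked on simulated data), and p-values were adjusted by Benjamini and Hochberg over all 5606.

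Folds are ratios of mean signals, and a diet with all arrays under 100 is set to 100 per array for a bound. Genes with a call in any comparison were named, those of at least 1.5-fold array by array, along with up to 4 called genes of each pathway list. The members and lists were chosen with earlier results of these data known. The platform annotation left 1473 probe sets unnamed, gave 308 several symbols and 7018 a single one. Alternatives were other floors, offsets, filters, normalizations, variance models, blocks, call rules and single arrays left out. The methods' t-test was run on the linear signals at P under 0.05. No sequence of a protein or an array probe was used here.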

Additional observations from a re-analysis of the deposited data

How the results depend on the processing

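Precision is limited by 3 arrays of 1 RNA pool per diet and by dim probe sets near a signal of 100. None of the 38 called changes turned its direction under any alternative, and under a floor of 50 or an offset of 32 all 38 stayed called. Of the other scalings, quantile normalization lost 3 and median centring 2.

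The replicate numbers of the labels do not pair the arrays, since deviations of same-numbered arrays correlated at -0.27 to 0.24 and 1 of 9 arrays correlated best with an array of its own number. With the replicate number as a block, 21 of the 51 were called in WPH against CAS, 6 in SPI against CAS and 7 in SPI against WPH, and 2012, 1030 and 890 of all probe sets. This block lost 4 of the 38 calls, those of Adcy3, Gnai2 and Pde3b against CAS and of Gnb1 between SPI and WPH.

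With wash round as a block, 10 of the 51 were called in WPH against CAS, 0 in SPI against CAS and 1 in SPI against WPH, and of all probe sets 1474 in WPH against CAS, 252 in SPI against CAS and 560 in SPI against WPH. Within wash rounds the counts were 12 in WPH against CAS and 2 in SPI against WPH, with 1610 and 315 of all probe sets. A minimum of 2-fold left 4 members in WPH against CAS (Rgs9, Rgs4, Rgs1 and, by its measured means, Pde7a), 1 in SPI against CAS and 1 in SPI against WPH (Rgs9 in both), where 786, 324 and 308 of all probe sets passed. At least 2-fold in 9 of 9 array pairs left 3 members (Rgs9, Rgs4 and, by signals under 100, Pde7a) in WPH against CAS and 0 in the others, and 398, 176 and 147 of all probe sets.

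The methods' t-test at P under 0.05 called 27 members in WPH against CAS, 15 in SPI against CAS and 13 in SPI against WPH. No share over all probe sets stands beside these counts, so they are not read as a result about the members. After Benjamini-Hochberg adjustment it called 16, 0 and 4 members, with 1629, 798 and 536 of all probe sets. With 1 probe set per gene, fewer probe sets were tested. Of all of them, 1341 were called in WPH against CAS, 764 in SPI against CAS and 717 in SPI against WPH. Leaving out single arrays gave 20 to 23 called members in WPH against CAS, 2 to 8 in SPI against CAS and 4 to 8 in SPI against WPH. The SPI against CAS count was 4 without CAS array 1, 2 without SPI array 1 and 5 without SPI array 2, and the SPI against WPH count was 4 without SPI array 1 and 5 without WPH array 3. The same ranges over all probe sets were 1850 to 2218, 898 to 1278 and 789 to 1116. The cause of these shifts was not tested.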

Other observations

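A pair of probe sets carried a member symbol beside another symbol and entered no comparison above. The one for Gnai1 and Gnai3, rc_AI228247_at, had signals of 1401, 1537 and 1399.5 on the SPI arrays, 1352, 1510.4 and 1301 on the WPH arrays and 1645, 1544 and 1421 on the CAS arrays, with an adjusted p of 0.271 or more in every comparison in limma. The one for Pde11a and Cyct, M20623_at, lay between 1.8 and 21.3 on all 9 arrays.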
